A study of Mus musculus with 18 samples.

Results

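The Hox genes described here are the 39 members of the mouse Hoxa, Hoxb, Hoxc and Hoxd clusters, taken as every gene whose symbol is one of those names followed by a number, out of 19630 genes measured. Counts of all transcripts of a gene were summed. Of the 39 members, 38 had enough counts to be tested, and Hoxb1 was left out with no more than 1 count in any group. Messenger RNA was sequenced in 18 mouse libraries that fall into 6 groups of 3. Embryonic fibroblasts that serve as feeders, the cell layer on which embryonic stem (ES) cells are grown, were sequenced alone as control feeders and as feeders labelled p53-defective. ES cells and fibroblasts were sequenced together from cultures on control feeders and from cultures on p53-defective feeders. The other two groups are labelled as ES cells alone, one grown on control feeders that were then removed and one given ATN161, a peptide inhibitor of integrin α5β1, where the others had feeders. The labels name no strain, embryonic age, passage or ES cell line, do not say which p53 alteration the defective feeders carry, and do not say how feeders were removed.

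Hox genes encode homeodomain transcription factors that give cells their position along the body axis. Within each cluster the order of the genes on the chromosome matches the order of the body regions in which they are used, from low paralogue numbers in the hindbrain and neck to high numbers in the trunk, limbs and tail. Cultured fibroblasts keep a Hox pattern of the place they came from, while ES cells hold the clusters under Polycomb repression, and retinoic acid opens them from the anterior end. Members are grouped below as anterior (paralogues 1 to 3, 8 genes), central (4 to 8, 15 genes) and posterior (9 to 13, 16 genes). On GRCm38.p6 the Hoxa cluster lies on chromosome 6 with 11 members, Hoxb on chromosome 11 from 96194316 to 96368254 with 10, Hoxc on chromosome 15 from 102921131 to 103036856 with 9, and Hoxd on chromosome 2 from 74668225 to 74765142 with 9. Gene models overlap for Hoxa3 with Hoxa4, Hoxa5 and Hoxa6, for Hoxb3 with Hoxb4, for Hoxd3 with Hoxd4 and for Hoxd10 with Hoxd11. Counts of these pairs may be split wrongly, since it is not stated whether the counting used strand.

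Library totals were 15.12 to 19.83 M (mega) counts, of which 875 to 8382 per library fell on Hox genes. RNA of Trp53, the p53 gene, was 123, 124 and 112 counts per M (CPM) in control feeders and 326, 317 and 244 in p53-defective feeders, so Trp53 RNA was higher in the libraries labelled p53-defective (log2 fold change 1.31 ± 0.09, SE, adjusted p = 1.07e-11). The 2 feeder groups also differed in cell type markers. Summed RNA of 16 fibroblast markers was 33110 to 40020 CPM in control and 5324 to 7596 in p53-defective feeders, where 14 of the 16 still reached 1 CPM. Summed RNA of 10 mesothelial markers was 64.28 to 74.88 against 1615 to 2484 CPM, with 8 of the 10 called higher and 2 lower. RNA of 12 macrophage markers summed to 140 to 192.7 against 4.126 to 6.192 CPM, with 8 of the 12 at 0 counts in p53-defective feeders. RNA of 12 ES cell markers summed to 3889 to 4044 CPM in ES cells on control feeders, 351.2 to 485.8 on p53-defective feeders, 5266 to 5411 after feeder removal and 6366 to 6584 with ATN161, and 7 or 8 of the 12 were at 0 in each feeder group. Whether the 2 feeder groups are the same kind of fibroblast preparation cannot be settled from the labels. The part of these differences in cell make-up in the Hox results was not tested. In bulk RNA, fewer cells of a type and less RNA per cell cannot be told apart.

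The control feeders held RNA of nearly every Hox gene, with the weight on the posterior side. Of the 39 members, 35 reached 1 CPM in all 3 control feeder libraries and 14 averaged at least 10 CPM. The p53-defective feeders had 18 and 7 such members, ES cells on control feeders 25 and 2, ES cells on p53-defective feeders 20 and 6, feeder-removed ES cells 15 and 0, and ES cells with ATN161 11 and 0. Summed over the 39 genes, Hox RNA was 467, 483 and 485 CPM in control feeders and 172, 155 and 167 CPM in p53-defective feeders. It was 120, 118 and 115 CPM in ES cells on control feeders and 174, 166 and 163 CPM on p53-defective feeders. It was 55.4, 61.9 and 68.7 CPM after feeder removal and 45.7, 44.3 and 46.8 CPM with ATN161. The groups of these CPM sums do not overlap, except that p53-defective feeders and the ES cells grown on them do.

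**Figure D1:**
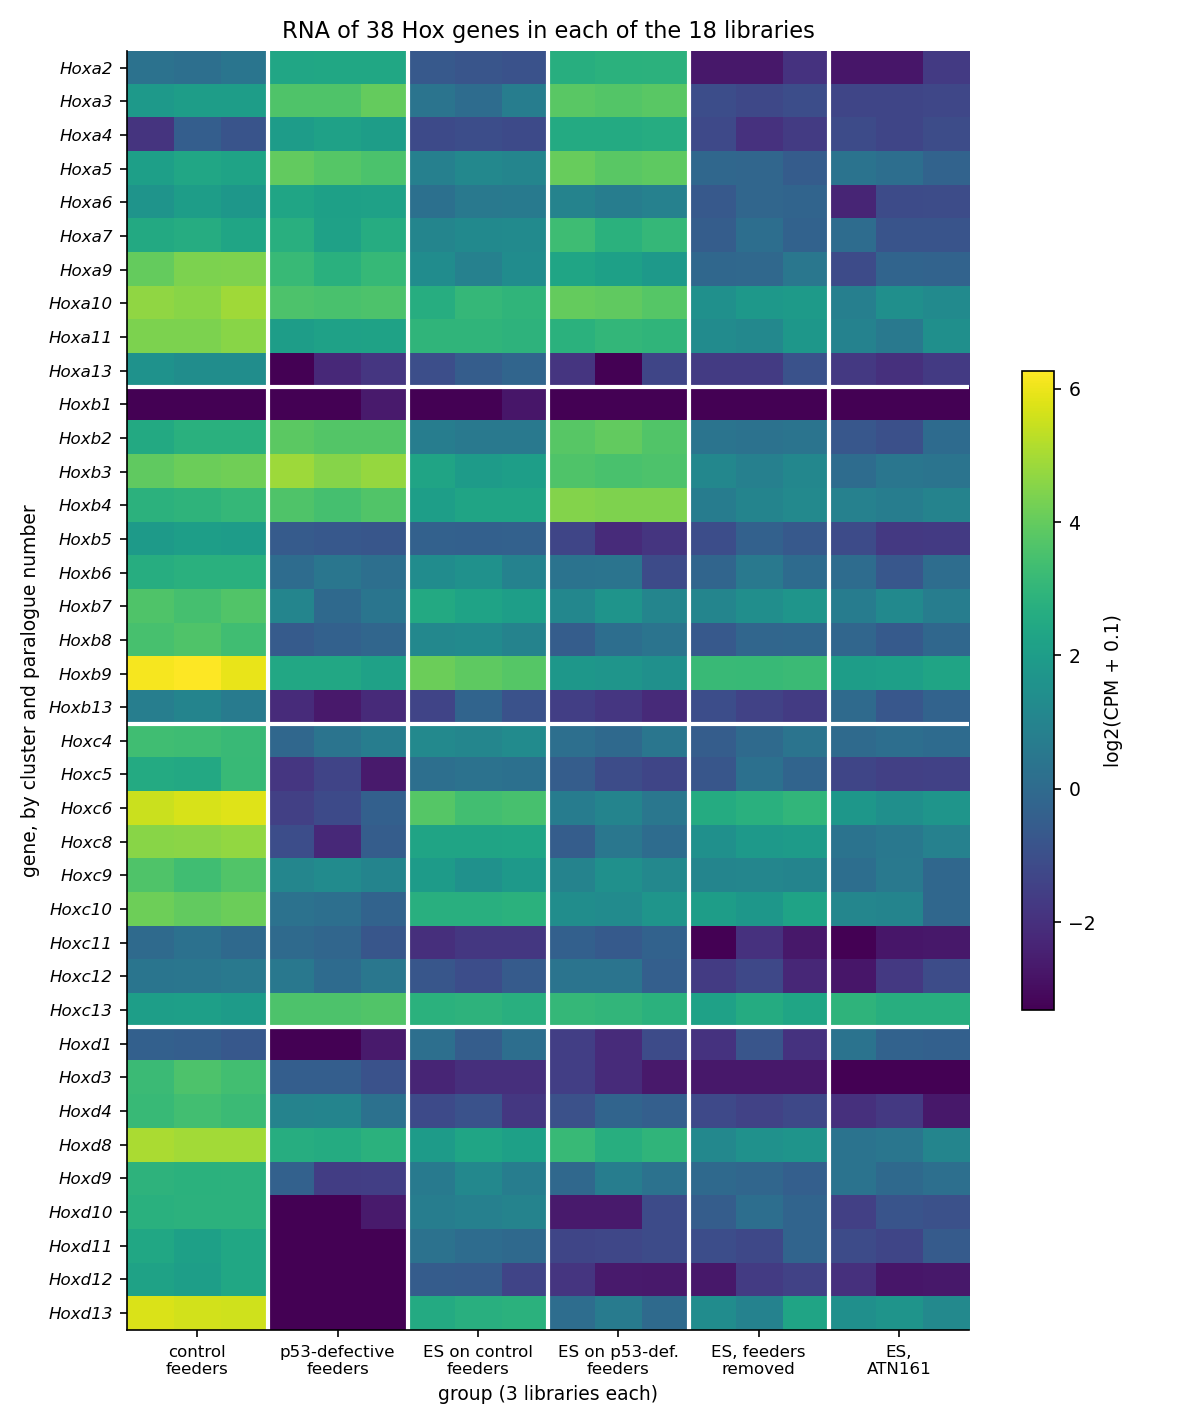
Each row is a Hox gene (38 shown), in cluster order, and each column a library; colour is log2(CPM + 0.1). Control feeders fill nearly the whole column, while p53-defective feeders and the ES cells grown on them are bright in the first rows of Hoxa and Hoxb and dark at the end of Hoxd, where Hoxd11, Hoxd12 and Hoxd13 had 0 counts in p53-defective feeders.

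Levels of different genes were compared as TPM (transcripts per M, which accounts for transcript length). The order of the Hox sums above differs by this measure. Summed mean TPM was lower in ES cells on p53-defective feeders than in those feeders alone or in ES cells on control feeders. In control feeders the highest levels belonged to Hoxc6 (57.3 ± 6.1 TPM, mean ± SD, n = 3 here and below) and Hoxb9 (50.7 ± 6.2), which are genes of the thoracic region and overlapped each other over the libraries. They were followed by Hoxd13 (38.2 ± 2.1), a gene of digits and genitalia, and Hoxd8 (35.1 ± 1.3), again overlapping each other. Hoxa10, Hoxc8, Hoxa11 and Hoxc10 came next at 23.4 to 18.2 TPM, each overlapping its neighbour in the order. In p53-defective feeders the order was led by Hoxb2 (21.9 ± 1.1 TPM), a hindbrain gene, then by Hoxb3 (14.9 ± 1.9) and Hoxa5 (14.4 ± 2), which overlapped, and by Hoxa10 (10.3 ± 0.5) and Hoxc13 (9.67 ± 0.43), which overlapped too. The first 3 in the order were paralogues 6, 9 and 13 in control feeders and 2, 3 and 5 in p53-defective feeders.

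The feeders were compared first, to describe what the p53-defective feeders brought into the cultures. Anterior members of Hoxa and Hoxb rose, while most posterior members, most of Hoxc and the whole of Hoxd fell. In p53-defective feeders 10 members were higher, 25 lower and 3 not called. With the other scalings 9 to 11 were higher and 25 lower, and with any 1 library left out 9 or 10 were higher and 25 lower. Over all genes tested 35.9% were called higher and 38.4% lower. The median log2 fold change of the 38 members was -2.55, against -0.01 over all genes, and stayed at -2.55 with the 3 genes at 0 counts set to their bound. By region, 5 of 7 tested anterior members were higher and 2 lower, 4 of 15 central members were higher and 10 lower, and 1 of 16 posterior members was higher and 13 lower. By cluster the counts higher and lower were 6 and 4 of 11 in Hoxa, 3 and 6 of 9 in Hoxb, 1 and 6 of 9 in Hoxc, and 0 and 9 of 9 in Hoxd. For all 35 members called, the libraries of the 2 feeder groups did not overlap. The share without overlap over all genes was not counted, so this count cannot be read as a trait of the Hox members.

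**Figure D2:**
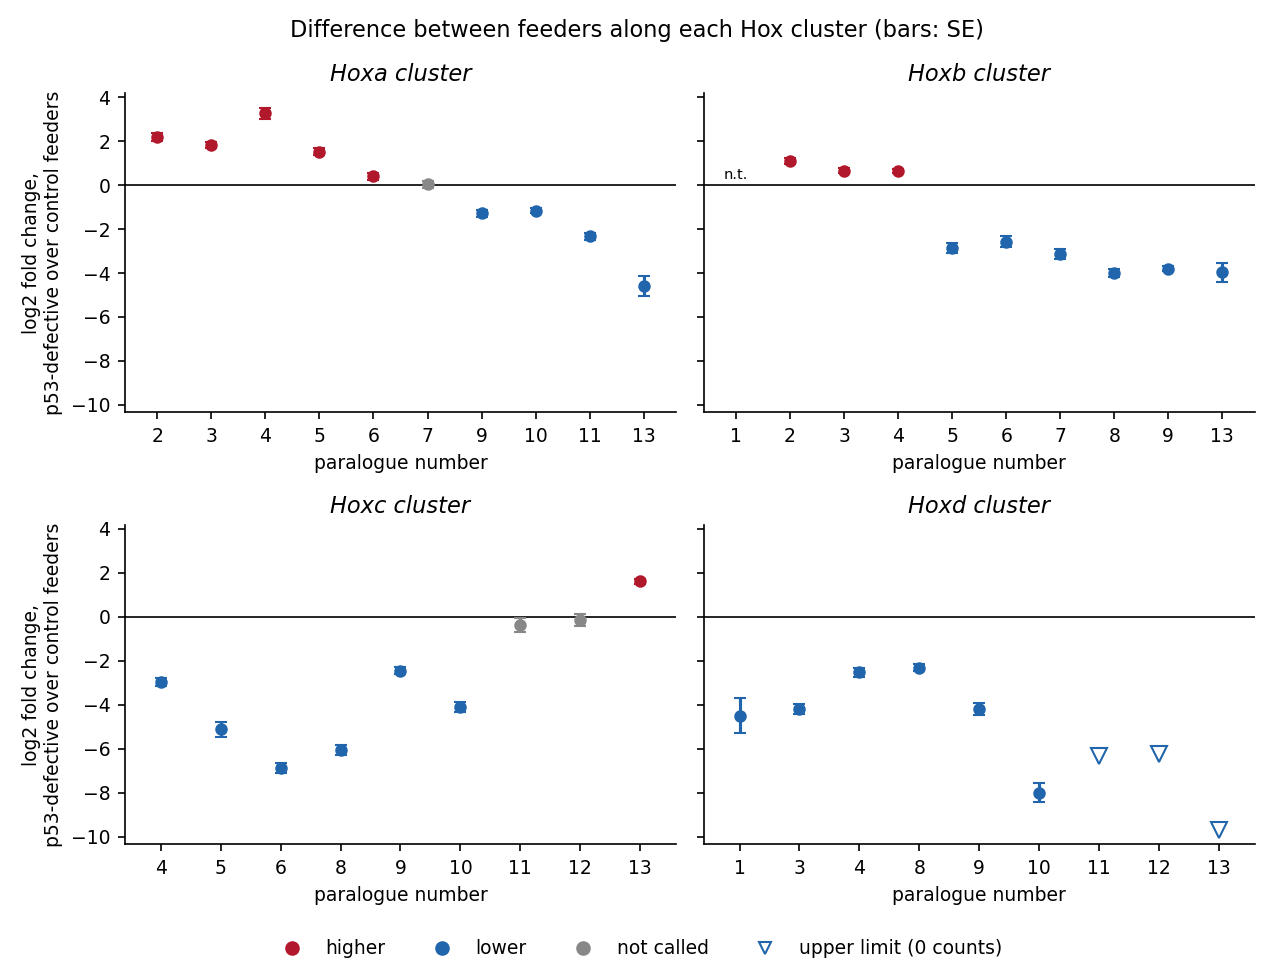
The y axis is the log2 fold change of p53-defective over control feeders (bars: SE) and the x axis the paralogue number within each cluster; open triangles mark upper limits of genes with 0 counts in p53-defective feeders and n.t. marks Hoxb1, which was not tested. Hoxa passes from higher to lower between paralogues 7 and 9, Hoxb between 4 and 5, all of Hoxd lies below 0, and Hoxc13 lies above 0 at the end of a cluster whose other called members lie below.

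The Hoxd cluster showed the widest gaps. Hoxd13, which patterns digits, external genitalia and hindgut, stood at 52.9, 49.5 and 47.6 CPM in control feeders and at 0 counts in all 3 p53-defective libraries, which makes it at least 823-fold lower (floor of 3 counts over the group). Hoxd12 and Hoxd11, its neighbours with roles in limb and sacral patterning, stood at 4.53, 4.05 and 5.1 CPM and at 5.21, 4.28 and 5.15 CPM in control feeders, also with 0 counts in p53-defective feeders, at least 75-fold and 80.4-fold lower. Hoxd10, a gene of the lumbar spinal cord and limb, was at 6.79, 7.17 and 7.07 CPM in control feeders and at 0, 0 and 0.0613 CPM in p53-defective feeders, or 366 counts against 1, a 346-fold ratio whose 95% counting interval runs from 61.7 to 13700. Hoxd1, the anterior end of the cluster, was low in both, at 0.679, 0.636 and 0.521 CPM in control feeders and 1 count over the 3 p53-defective libraries (30.3-fold, interval 5.05 to 1230). The central genes Hoxd8 (31.4 ± 1.5 against 6.33 ± 0.5 CPM) and Hoxd4 (9.4 ± 0.74 against 1.62 ± 0.45 CPM) fell the least of the cluster, by 4.97-fold and 5.8-fold. Evx2, a homeobox gene that lies beyond Hoxd13 and is not a Hox gene, stood at 2.43, 1.91 and 2.55 CPM in control feeders and at 0 counts in p53-defective feeders.

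Hoxc fell in its central part and at paralogues 9 and 10. Hoxc6, which with Hoxb9 led the order by TPM in control feeders, was at 45.5, 51.2 and 56.4 CPM there and at 0.254, 0.346 and 0.674 CPM in p53-defective feeders, 120-fold lower (log2 fold change -6.88 ± 0.21, SE, adjusted p = 2.95e-18). Hoxc8, which sets thoracic vertebral identity, was at 23.4, 24.3 and 26.6 against 0.381, 0.115 and 0.613 CPM, 68-fold lower (adjusted p = 5.34e-16). Hoxc10, a gene of the lumbar region, was at 17.8, 15.6 and 17.3 against 1.14, 1.04 and 0.736 CPM, and Hoxc4, Hoxc5 and Hoxc9 fell by 5.51-fold to 36.3-fold. Hoxc11 (-0.39 ± 0.32, adjusted p = 0.276) and Hoxc12 (-0.15 ± 0.29, adjusted p = 0.675) overlapped between the groups at 0.49 to 1.39 CPM and were not called. Hoxc13, a gene of hair follicles and nails, ran the other way at 4.02, 4.16 and 3.76 against 11.9, 12.1 and 12.6 CPM, a rise of 1.61 ± 0.12 (adjusted p = 6.43e-11), and was the only posterior member that was higher in p53-defective feeders.

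In Hoxa and Hoxb the change turned inside the cluster. Hoxa2, which sets the identity of the second branchial arch, was at 1.13, 1.04 and 1.22 CPM in control and 5.01, 5.14 and 5.15 CPM in p53-defective feeders (2.17 ± 0.18, adjusted p = 3.13e-10). Hoxa4, a gene of cervical vertebrae, rose most among the called members, from 0.17, 0.636 and 0.463 to 3.87, 4.45 and 3.92 CPM (9.71-fold, adjusted p = 4.25e-11). Hoxa5, needed for lung and neck development, was at 4.19, 5.03 and 4.69 against 15.5, 13.2 and 11.6 CPM (1.53 ± 0.14). Hoxa3, a gene of the third pharyngeal arch, rose from 3.56, 3.99 and 3.94 to 12.4, 12.4 and 16 CPM (1.82 ± 0.13). All 4 of these genes were 2.89-fold to 9.71-fold higher. Hoxa6 was 1.32-fold higher (adjusted p = 0.0369), a call that was lost in 4 other settings and without control feeder library 1 or 3 or p53-defective library 1. Hoxa7 did not pass the test (0.03 ± 0.18, adjusted p = 0.885). Beyond it the sign was reversed: Hoxa9, a gene of the trunk and of blood progenitors, was at 15.8, 20.9 and 21.4 against 8.76, 6.81 and 8.52 CPM, 2.42-fold lower. Hoxa10, a gene of the uterus and lumbar spine, was at 25.5, 23.6 and 30.3 against 11.9, 11.4 and 12.1 CPM, 2.24-fold lower. Hoxa11, needed for forearm and kidney, was at 21, 20.5 and 23.7 against 4, 4.45 and 4.54 CPM, 5.02-fold lower, and Hoxa13 was 25.9-fold lower. Within this cluster the fall was larger toward the posterior end from Hoxa10 on.

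In Hoxb the hindbrain genes Hoxb2 (5.55, 6.71 and 6.72 against 14.5, 13.1 and 13.1 CPM), Hoxb3 (15.1, 17.4 and 18 against 29, 23.1 and 27 CPM) and Hoxb4 (7.02, 7.52 and 8.34 against 12.2, 10.7 and 12.6 CPM) were higher in p53-defective feeders, by 2.14-fold, 1.57-fold and 1.55-fold. The call of Hoxb3 was lost when only curated transcript models were counted. The next gene, Hoxb5, was lower, at 3.68, 4.1 and 3.82 against 0.571, 0.52 and 0.49 CPM (-2.86 ± 0.23). Hoxb6, Hoxb7, Hoxb8 and Hoxb13 were 5.97-fold to 16.6-fold lower. Hoxb9, the most abundant member of the cluster in control feeders, was at 71, 77.4 and 61.6 against 5.27, 5.37 and 4.41 CPM, 13.9-fold lower (adjusted p = 5.04e-18).

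Shares of the summed Hox RNA do not depend on how libraries are scaled against each other. Anterior members made up 7.83 to 9.06% of Hox RNA in control feeders and 38 to 40.1% in p53-defective feeders. Posterior members made up 51.3 to 53.7% and 28 to 29.5%, and central members on average 39.2% and 32.4%. By cluster, Hoxa took 18.9% of Hox RNA in control and 46% in p53-defective feeders, while Hoxd took 26.2% and 5.44% and Hoxc 26.5% and 11.8%. The libraries of ES cells on control feeders lay at 8.47 to 9.9% anterior, close to their feeders, and those of ES cells on p53-defective feeders at 29.8 to 31.4%, on the side of theirs. Feeder-removed libraries, at 7.33 to 9.41%, were also close to control feeders, and those with ATN161 lay at 13.9 to 15.2%.

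**Figure D3:**
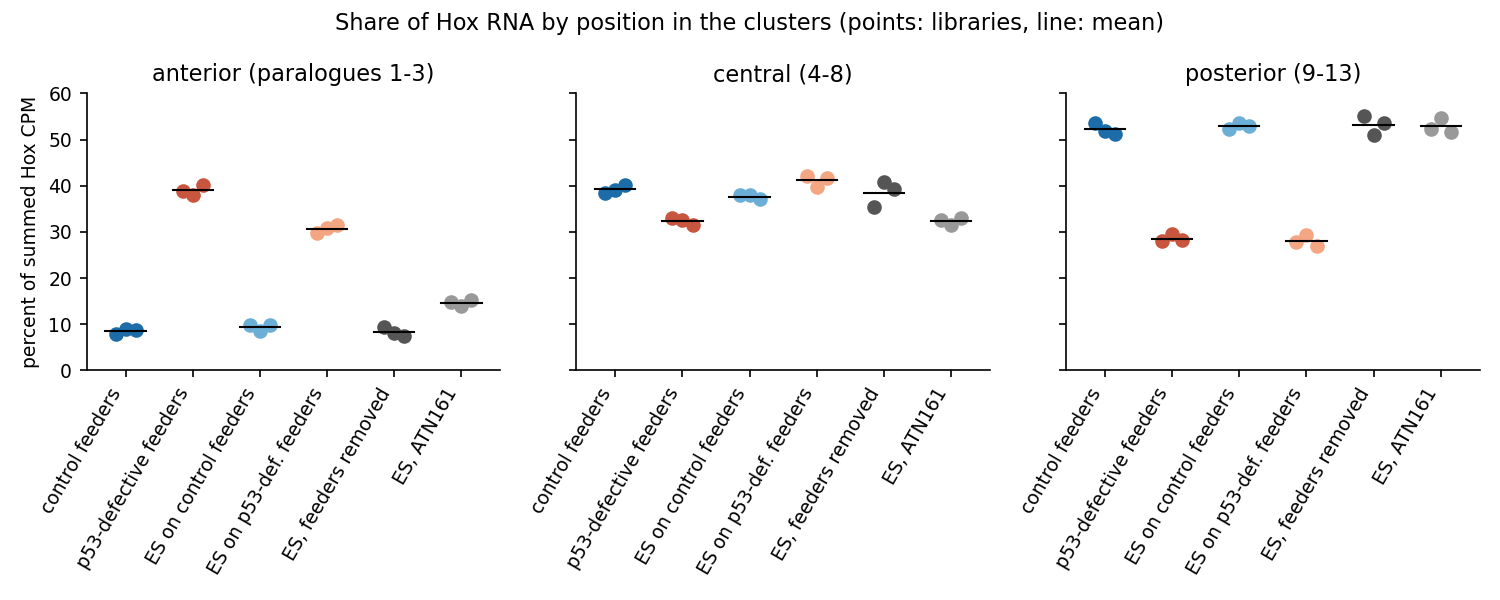
The y axis is the percentage of the summed Hox CPM held by anterior, central and posterior members in each library (points; line: mean) of the 6 groups. Both groups with p53-defective feeders stand between 29.8 and 40.1% in the anterior panel, and the other 4 groups between 7.33 and 15.2%.

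To show the DNA in front of genes at both ends of the change, the 250 bases upstream of the start site are printed for 2 genes that fell and 2 that rose, all from windows that overlap no annotated exon. The sequences are RefSeq promoters on GRCm38.p6, in which 22 of the 39 members matched with 24 start sites. Capitals mark matches on either strand to TATAAA (the TATA box core), CCAAT (the CCAAT box core), AGGTCA (a nuclear receptor half-site, which retinoic acid receptors bind in pairs) or TGATTGAT (a site of Pbx and Hox proteins). The windows are chr2:74667975-74668224 on the plus strand for Hoxd13, chr2:74691641-74691890 on the plus strand for Hoxd10, chr6:52164832-52165081 on the minus strand for Hoxa2 and chr6:52204588-52204837 on the minus strand for Hoxa5.
Hoxd13: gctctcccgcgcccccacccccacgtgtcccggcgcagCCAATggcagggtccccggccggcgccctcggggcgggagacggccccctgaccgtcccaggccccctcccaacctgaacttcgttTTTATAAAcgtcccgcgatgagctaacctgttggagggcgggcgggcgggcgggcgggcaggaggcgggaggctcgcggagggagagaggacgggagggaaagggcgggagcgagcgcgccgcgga
Hoxd10: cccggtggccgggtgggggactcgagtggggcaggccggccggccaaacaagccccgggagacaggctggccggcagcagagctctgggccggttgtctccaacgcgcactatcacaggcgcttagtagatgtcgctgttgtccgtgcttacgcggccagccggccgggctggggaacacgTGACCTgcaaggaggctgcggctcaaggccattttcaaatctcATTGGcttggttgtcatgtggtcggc
Hoxa2: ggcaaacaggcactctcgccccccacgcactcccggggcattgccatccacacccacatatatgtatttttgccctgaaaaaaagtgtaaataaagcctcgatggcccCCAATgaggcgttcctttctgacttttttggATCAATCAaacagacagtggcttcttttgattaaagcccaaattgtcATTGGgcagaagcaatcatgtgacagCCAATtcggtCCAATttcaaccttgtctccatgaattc
Hoxa5: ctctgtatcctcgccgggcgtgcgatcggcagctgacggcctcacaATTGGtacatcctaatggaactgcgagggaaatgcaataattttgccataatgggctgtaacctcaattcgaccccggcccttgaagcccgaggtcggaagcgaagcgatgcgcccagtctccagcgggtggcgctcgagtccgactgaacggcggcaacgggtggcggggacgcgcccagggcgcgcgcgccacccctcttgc
Hoxd13 had 74.4% G and C and 31 CpG dinucleotides, Hoxd10 65.6% and 20, Hoxa5 63.6% and 28, and Hoxa2 46.4% and 6. The Hoxd13 window held TATAAA, overlapping its own reverse complement, and CCAAT; Hoxd10 held CCAAT and AGGTCA; Hoxa2 held CCAAT and TGATTGAT; Hoxa5 held CCAAT. Over the 24 Hox windows the median was 58.6% G and C with 12.5 CpG, against 52.4% and 6 over 32851 promoters. CCAAT was found in 14 of the 24 and in 33.8% of all promoters, TATAAA in 4 and 12.4%, AGGTCA in 6 and 14%, TGATTGAT in 2 and 0.7%, TAATTA (a homeodomain core) in 2 and 4.8%, and TTTATGG (a core of Cdx and posterior Hox proteins) in 1 and 2.4%.

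Genes that act with or on the Hox clusters were read in the same feeders, where 35.9% of all genes were called higher and 38.4% lower. Of 9 tested genes for TALE cofactors, the homeodomain partners that bind DNA with Hox proteins, 4 were higher and 3 lower in p53-defective feeders. Meis3 fell from 36.2, 42.3 and 35.8 to 5.9, 6.06 and 9.14 CPM (-2.44 ± 0.14), and Meis1 rose from 17.2, 19 and 18.4 to 26.3, 27.8 and 33.7 CPM (0.68 ± 0.12). Of 15 retinoic acid pathway genes 5 were higher and 8 lower. Crabp1, which encodes a retinoic acid carrier of the cytoplasm, was at 764, 751 and 747 CPM in control feeders and 0.0635, 0.231 and 0.0613 CPM in p53-defective feeders, and Cyp26b1, which encodes an enzyme that degrades retinoic acid, fell from 58.9 ± 2.8 to 0.64 ± 0.25 CPM. Of 12 genes of Polycomb repressive complex 2, which places the H3K27 methylation found on silent Hox genes, 8 were higher and 2 lower, with the catalytic subunit gene Ezh2 at 62.1 ± 6.7 against 27.3 ± 2.4 CPM (1.18 ± 0.08). Of 16 genes of Polycomb complex 1, 8 were higher and 4 lower, led by Pcgf5 (2.37 ± 0.09) and Cbx2 (1.56 ± 0.08). Of 9 genes of Trithorax complexes and H3K27 demethylases 5 were higher and 2 lower. Of 12 tested genes that flank the clusters 5 were higher and 2 lower.

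The co-cultures asked whether the Hox pattern of the feeders is seen in cultures that also hold ES cells. The anterior genes of Hoxa and Hoxb were higher in ES cells on p53-defective feeders and most of Hoxb, Hoxc and posterior Hoxd lower, as in the feeders alone, which share no library with the co-cultures. With standard scaling 15 of 38 members were higher and 18 lower, where 36.6% and 46.7% of all genes were called. With scaling on ES-specific genes the counts were 36 and 0, and with scaling on feeder-specific genes 4 and 32. Of all 15389 genes, ES-specific scaling called 7444 higher in both feeders and co-culture and 184 lower in both. It called 3135 lower in feeders but higher in co-culture, and 50 the reverse. With feeder-specific scaling these numbers were 256, 6789, 49 and 3383. Genes not called in the feeders are not among them. With standard scaling the median of the members was -0.27 against -0.18 over all genes. Scaling on ES-specific genes moved the median of all genes to 3.20 and that of the members to 3.10, and scaling on feeder-specific genes moved them to -2.82 and -2.90, so that relative to all genes the members' median stood at -0.09 each time. By region, 5 anterior members were higher and 1 lower, 6 central members higher and 8 lower, and 4 posterior members higher and 9 lower. By cluster, Hoxa had 8 higher and 1 lower, Hoxb 3 and 6, Hoxc 2 and 6, and Hoxd 2 and 5. Summed RNA of the 10 mesothelial markers was 45.67 to 48.92 CPM in ES cells on control feeders and 2313 to 2398 CPM on p53-defective feeders, with 10 of the 10 called higher. That of the 16 fibroblast markers was 6772 to 7108 and 16510 to 23560 CPM, with 8 called higher and 5 lower. Their part in the Hox differences was not tested. The values that follow are with standard scaling.

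Among anterior genes, Hoxa2 was at 0.54, 0.476 and 0.438 CPM in ES cells on control feeders and 6.37, 6.99 and 7.07 CPM on p53-defective feeders (3.79 ± 0.20, adjusted p = 4.97e-14). Hoxa3 was at 1.18, 0.953 and 1.56 against 13.9, 12.9 and 14 CPM, 11.1-fold higher. Hoxa4 was at 0.344, 0.381 and 0.341 against 5.76, 5.68 and 6.06 CPM, 16.4-fold higher (adjusted p = 2.46e-13). These 3 genes had also risen in the feeders alone, and so had Hoxa5 (7.62-fold here), Hoxb2 (1.57, 1.38 and 1.36 against 13.6, 15.5 and 12.6 CPM, 9.66-fold), Hoxb3 (2.82-fold) and Hoxb4 (4.83-fold). As in the feeders, the call of Hoxb3 in co-culture was lost when only curated transcript models were counted. Hoxa6 did not overlap between the groups but missed the threshold (0.41 ± 0.23, adjusted p = 0.0953). Hoxa7, which showed no call in the feeders, was at 1.96, 2.24 and 2.29 against 9.7, 6.93 and 8.38 CPM (1.94 ± 0.19). With Hoxa9 and Hoxa10 it belonged to the run of Hoxa members that were higher here by CPM with standard scaling. Hoxb4, a gene known for expanding blood stem cells when supplied, reached 22.7, 21.3 and 21.3 CPM, above the 12.2, 10.7 and 12.6 CPM of the p53-defective feeders themselves, though on the TPM scale the 2 groups stood at 9.62 ± 1 and 8.84 ± 0.87.

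Among central and posterior genes, Hoxc6 was at 13.2, 10.3 and 11 CPM on control feeders and 1.52, 1.93 and 1.31 CPM on p53-defective feeders (-2.86 ± 0.18, adjusted p = 1.50e-12), a difference that turned to 0.52 with scaling on ES-specific genes. Hoxb9 was at 17.1, 14.9 and 13.4 against 3.27, 3.12 and 2.73 CPM, 4.97-fold lower, and Hoxc8 at 4.81, 4.76 and 4.86 against 0.606, 1.31 and 0.951 CPM, 5.05-fold lower. Both are thoracic genes. Hoxd10 was at 1.57, 1.71 and 1.85 against 0.0606, 0.0624 and 0.356 CPM, 10.6-fold lower (log2 fold change -3.35, or -4.57 without library 3 of ES cells on p53-defective feeders), and was not called with scaling on ES-specific genes (-0.02, adjusted p = 0.975). Hoxd13 was at 5.75, 6.57 and 6.91 against 0.97, 1.5 and 0.891 CPM, 5.75-fold lower; the gene had no count in the p53-defective feeders alone, and 55 counts over the 3 libraries of ES cells on them. Hoxc13 overlapped between the co-cultures in CPM (0.14 ± 0.12, adjusted p = 0.268), as did Hoxa11, Hoxd3 and Hoxd9, none of which was called. By TPM, means on p53-defective feeders were lower for Hoxc13 (5.17 ± 0.32 against 3.59 ± 0.28), Hoxa11 (5.99 ± 0.26 against 3.77 ± 0.42) and Hoxd9 (1.5 ± 0.33 against 0.647 ± 0.16).

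Over the 38 members the log2 fold changes in feeders and in co-culture had Pearson's r = 0.84 and Spearman's rho = 0.89, and r = 0.9 over the 35 members with counts in p53-defective feeders. Over all 15389 genes the values were 0.37 and 0.24. These are correlations across genes in 12 libraries, and genes are not independent replicates. With standard scaling the sign was the same for 31 of 38 members (81.6%) and for 8305 of 15389 genes (54%). It was the same for 14 members with scaling on ES-specific genes, where it was the same for 64.2% of all genes, and for 33 with scaling on feeder-specific genes, where the share was 61.7%. With standard scaling 8 were higher in both comparisons, 18 were lower in both and 4 were lower in feeders but higher in co-culture. The 4 are Hoxa9 (2.46, 1.76 and 2.43 against 4.91, 4.31 and 3.51 CPM in co-culture), Hoxa10 (6.29, 8.38 and 7.59 against 16.1, 15 and 13.3 CPM), Hoxd8 (3.73, 4.91 and 4.33 against 8.79, 6.3 and 7.66 CPM) and Hoxd4, whose co-culture groups overlap (0.344, 0.429 and 0.195 against 0.424, 0.749 and 0.654 CPM, adjusted p = 0.0364). The call of Hoxd4 in co-culture was lost with the DESeq2 Wald test and without library 3 of ES cells on control feeders or library 2 or 3 of ES cells on p53-defective feeders. By TPM the co-cultures lay close for Hoxa9 (1.24 ± 0.22 against 1.48 ± 0.2), Hoxd8 (4.29 ± 0.55 against 4.84 ± 1) and Hoxd4 (0.223 ± 0.086 against 0.27 ± 0.07). Hoxa10 was at 6.02 ± 0.78 against 7.61 ± 0.67 TPM. No member was called higher in feeders and lower in co-culture with standard scaling. With scaling on feeder-specific genes 4 were, Hoxb3 and Hoxb4 among them, and Hoxa9, Hoxa10, Hoxd4 and Hoxd8 were lower in both.

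**Figure D4:**
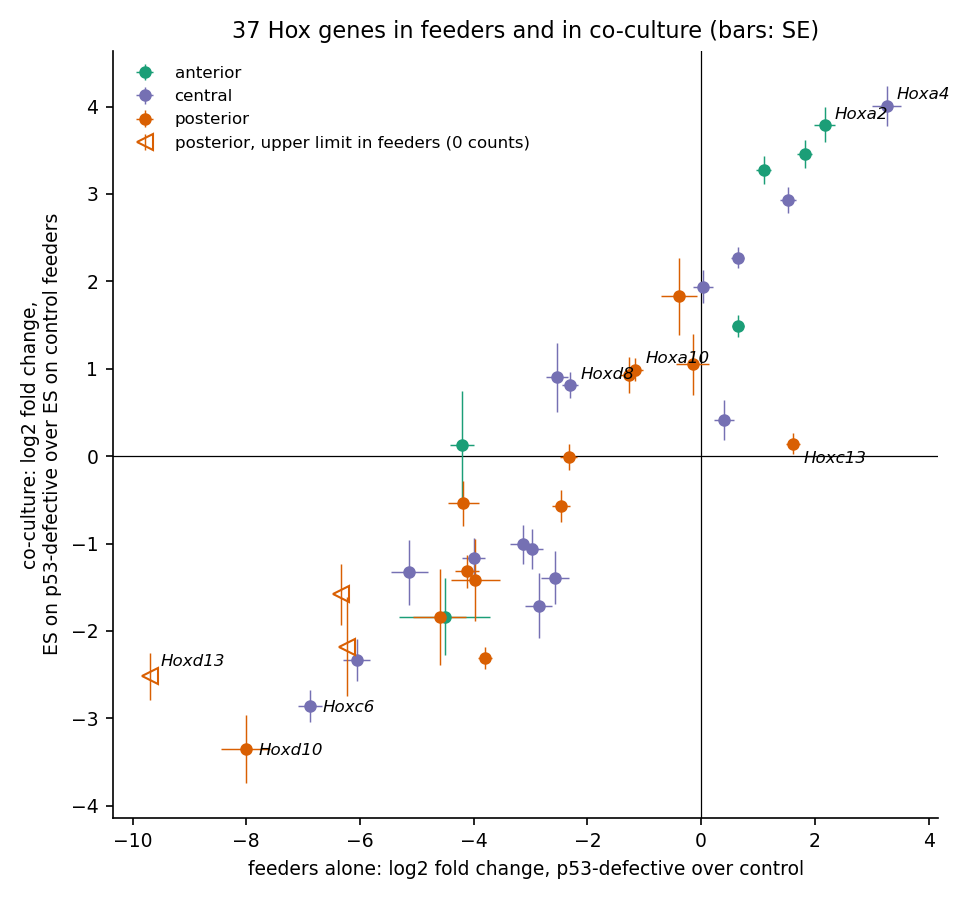
Each point is a Hox gene (37 shown), with the log2 fold change of p53-defective over control feeders on the x axis and that of ES cells on p53-defective over control feeders on the y axis (bars: SE; open triangles: upper limit in feeders, 0 counts). Points run from Hoxd13, Hoxd10 and Hoxc6 at lower left to Hoxa2 and Hoxa4 at upper right; scaling on ES-specific genes moves all points up, with 36 members higher on the y axis, and scaling on feeder-specific genes moves them down, with 32 lower.

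The effect of the p53 label itself was compared between co-culture and feeders in 1 term of the fit. With standard scaling it was more positive in co-culture for 33 members and more negative for 2, where 38.8% and 34.8% of all genes were called. With scaling on feeder-specific genes the counts were 11 and 12, with the median of all genes at -2.365 and that of the members at -0.19. With scaling on ES-specific genes none was more negative, and these medians were 3.057 and 5.16. Of the 2 more negative with standard scaling, Hoxc13 stood at -1.47 ± 0.17 (adjusted p = 7.20e-08) and turned positive with scaling on ES-specific genes (1.52). Hoxc6 differed by 4.03 ± 0.35 and Hoxd8 by 3.12 ± 0.21. Hoxa4 (0.75 ± 0.41, adjusted p = 0.123), Hoxa6 and Hoxb5 were not called with standard scaling but were called with either of those scalings, and Hoxa4 also without control feeder library 1. Of the gene lists around the clusters, TALE cofactors had 6 higher and 2 lower of 9 in ES cells on p53-defective against control feeders and the retinoic acid pathway 10 and 4 of 15, in a comparison where 36.6% of all genes were called higher and 46.7% lower. Polycomb complex 2 had 1 higher and 10 lower of 12, the reverse of the feeders, beside ES cell markers that summed to 351.2 to 485.8 CPM on p53-defective and 3889 to 4044 CPM on control feeders.

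Feeder removal and ATN161 were each compared with ES cells on control feeders, so both comparisons share those 3 control libraries. Hox RNA was lower in both, and the members' median stayed below 0 with each scaling. After feeder removal 28 of 38 members were lower, where 26.5% of all genes were, with a median of -1.10 against -0.01 over all genes. None was called higher by edgeR or by the DESeq2 Wald test, where edgeR called 25.5% of all genes higher, and 0 were higher at an unadjusted p below 0.05, since all 38 fold changes lay below 0. Scaling on feeder-specific genes left 8 lower, with the median of all genes at 0.763 and that of the members at -0.34. With ATN161 and standard scaling 33 members were lower and 1 higher (28% and 33.6%), with a median of -1.60, or -1.54 with the gene at 0 set to its bound, against 0.07 over all genes. Scaling on feeder-specific genes gave 11 lower and 5 higher here, with the median of all genes at 1.34 and that of the members at -0.33. Summed fibroblast marker RNA stood at 6772 to 7108 CPM in ES cells on control feeders, 4300 to 4712 CPM after removal and 1025 to 1135 CPM with ATN161. Over the 35 members with at least 1 CPM in control feeders, the level relative to ES cells on control feeders had a median of 46.4% after removal and 32% with ATN161.

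Hoxb9, Hoxc6 and Hoxd13, which were abundant in control feeders, were lower in both groups with standard scaling, while Hoxd3 and Hoxd4 were not called after removal. Hoxb9 was at 17.1, 14.9 and 13.4 CPM in ES cells on control feeders, 9.05, 8.86 and 9.15 CPM after removal and 3.94, 4.21 and 4.78 CPM with ATN161, with no overlap between the groups. Hoxc6 was at 13.2, 10.3 and 11, then 5.87, 6.67 and 7.91, then 3.24, 2.64 and 3.12 CPM, also with no overlap. Hoxd13 fell from 5.75, 6.57 and 6.91 to 2.47, 1.82 and 4.71 CPM after removal and to 2.63, 3.04 and 2.18 CPM with ATN161, and the last 2 groups overlapped. Hoxa2 had the largest fall after removal, from 0.54, 0.476 and 0.438 to 0.0549, 0.0534 and 0.162 CPM (-2.34 ± 0.46, adjusted p = 0.000227, and -3.06 without feeder-removed library 3). That fall rests on 30 counts against 5. Hoxa3 fell from 1.18, 0.953 and 1.56 to 0.384, 0.32 and 0.379 CPM (-1.75 ± 0.29) and Hoxd1, which takes part in sensory neuron wiring, from 1.03, 0.619 and 1.02 to 0.165, 0.481 and 0.162 CPM (-1.69 ± 0.42). Hoxa11 fell from 7.66, 7.67 and 7.25 to 2.36, 2.14 and 3.3 CPM (-1.53 ± 0.17), as did Hoxb8 by the same amount. When only curated transcript models were counted, 22 of the 28 calls after removal remained. Those of Hoxb3, Hoxb6, Hoxb7, Hoxb8, Hoxc8 and Hoxd10 were lost. Among the members called after removal, Hoxc13 fell least (-0.45 ± 0.12, adjusted p = 0.00395), at 6.97, 7.34 and 6.57 against 4.44, 5.87 and 4.93 CPM. Hoxd3, a neck vertebra gene that stood at 9.22, 12.1 and 10.3 CPM in control feeders, had only 8 counts over the 3 libraries of ES cells on control feeders and 0 with ATN161, at least 2.53-fold lower. Hoxd12 (0.589, 0.572 and 0.292 against 0.152, 0.0507 and 0.0519 CPM, -2.42 ± 0.56, and -3.08 without ATN161 library 1) and Hoxa6 (1.08, 1.38 and 1.46 against 0.101, 0.355 and 0.364 CPM, -2.24 ± 0.32) had the next largest falls with ATN161, followed by Hoxa2, Hoxc11 and Hoxd10 at -2.17 each, of which Hoxc11 was not called with the DESeq2 Wald test or without ATN161 library 1.

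A few members did not follow the fall with ATN161. Hoxa4, Hoxb13, Hoxc13 and Hoxd1 overlapped between the 2 groups and were not called, at -0.06 ± 0.39, 0.51 ± 0.34, -0.05 ± 0.12 and -0.06 ± 0.32. Hoxd4 was called lower although its groups overlapped (-1.21 ± 0.52, adjusted p = 0.0489), a call lost with the DESeq2 Wald test and without library 1 or 2 of ES cells on control feeders or ATN161 library 1 or 3.

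**Figure D5:**
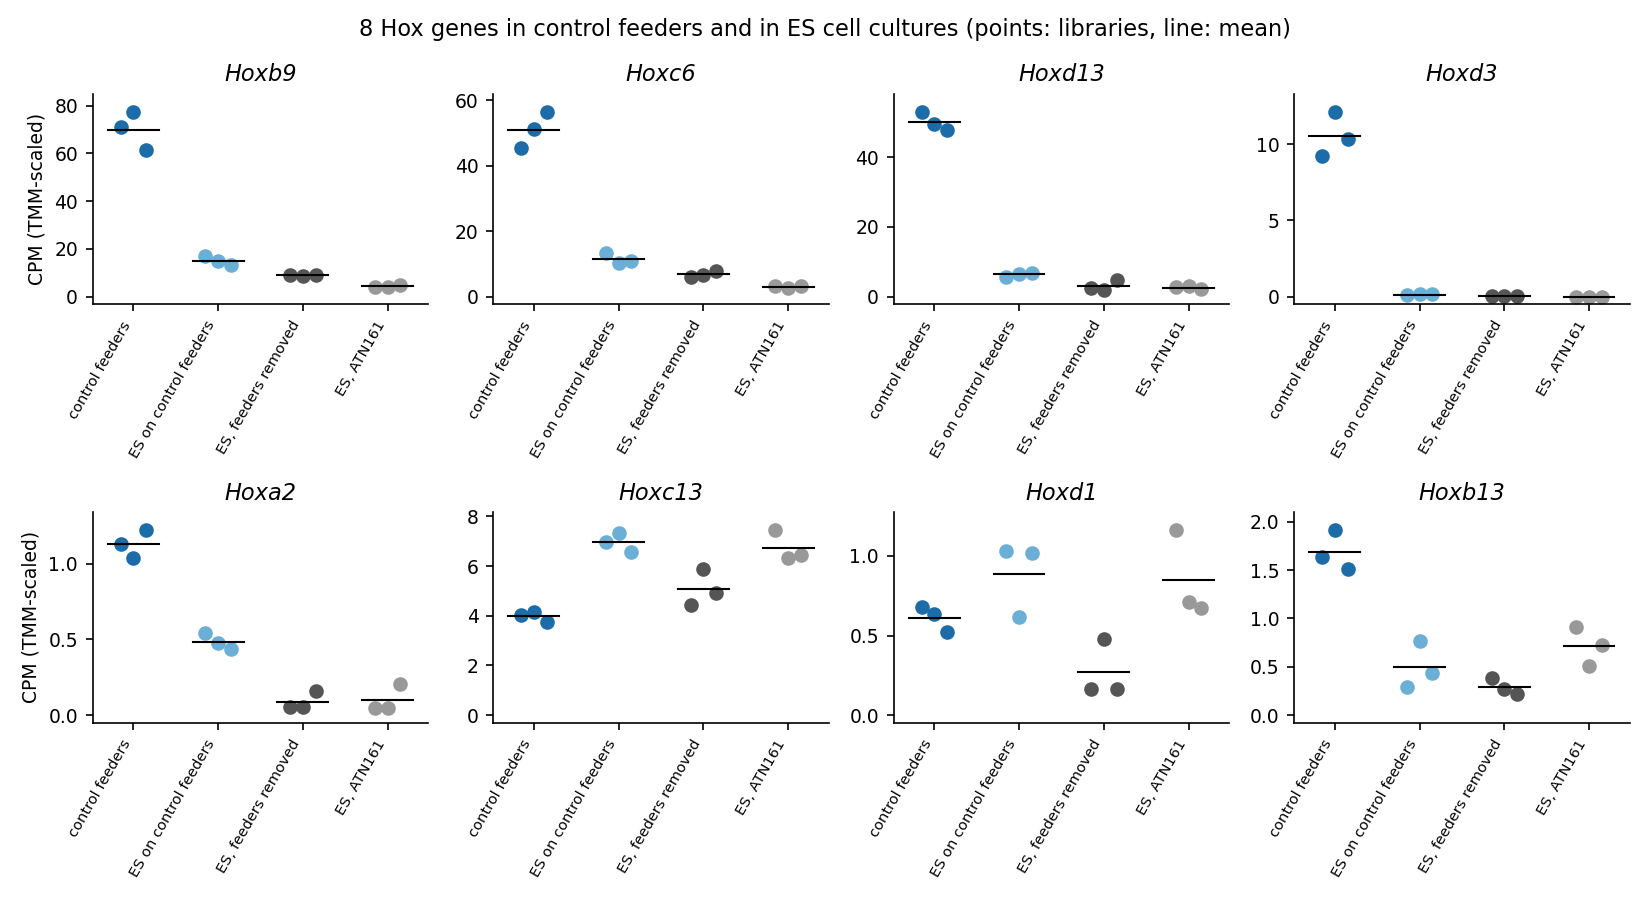
The y axis is CPM of 8 Hox genes in each library (points; line: mean) of control feeders and the 3 groups of ES cells from control feeders, after removal or with ATN161. Hoxb9, Hoxc6, Hoxd13 and Hoxd3 are highest in control feeders with standard scaling (with scaling on feeder-specific genes 29 members were higher in ES cells on control feeders than in the feeders), Hoxa2 is low in all 3 groups of ES cells, and Hoxc13, Hoxd1 and Hoxb13 with ATN161 lie above feeder removal.

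ATN161 and feeder removal were also compared directly, sharing with the comparisons above the libraries of each group. With ATN161 4 members were higher and 13 lower, where 28.6% and 26.8% of all genes were called. Scaling on feeder-specific genes gave 5 lower, with the median of all genes at 0.53 and that of the members at -0.04. Among the 4 were Hoxd1 (1.16, 0.71 and 0.675 against 0.165, 0.481 and 0.162 CPM, adjusted p = 0.00268), Hoxb13, a gene of the tail and prostate (0.91, 0.507 and 0.727 against 0.384, 0.267 and 0.217 CPM, adjusted p = 0.0077), and Hoxc13 (7.43, 6.34 and 6.44 against 4.44, 5.87 and 4.93 CPM, adjusted p = 0.00865). The Hoxc13 call was lost with scaling on ES-specific genes and without feeder-removed library 1 or ATN161 library 1. None of the 15 central members was called higher. The largest falls were those of Hoxc5 (0.303, 0.253 and 0.26 against 0.494, 1.07 and 0.758 CPM, -1.49 ± 0.43), Hoxa6 (0.101, 0.355 and 0.364 against 0.549, 0.801 and 0.758 CPM, -1.35 ± 0.37), Hoxc10 (2.02, 1.93 and 0.831 against 3.95, 3.31 and 4.6 CPM, -1.30 ± 0.22) and Hoxc8 (1.16, 1.32 and 1.77 against 2.69, 3.52 and 3.79 CPM, -1.24 ± 0.23), followed by Hoxc6 (-1.19 ± 0.17) and Hoxb9 (-1.07 ± 0.13). Hoxc held 5 of the 13, Hoxb 4, and Hoxa and Hoxd 2 each. The order of levels with ATN161 was led by Hoxc13 at 4.21 ± 0.39 TPM.

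Feeders were also set against feeder-removed ES cells. Summed fibroblast marker RNA in the feeder-removed libraries was still 4300 to 4712 CPM, with 15 of the 16 markers at 1 CPM or more. Whether fibroblasts remained in them was not tested, so the comparison does not show which members mark fibroblasts. With standard scaling 35 members were higher and 1 lower in control feeders (40.8% and 45.1% of all genes), with a median of 2.99 against -0.09, whereas scaling on feeder-specific genes gave 3 and 25. The latter moved the median of all genes to -3.888 and that of the members to -0.81. With standard scaling the largest differences were in Hoxd3 (10.5 ± 1.5 against 0.0541 CPM, 7.43 ± 0.30), Hoxd4 (8.83, 10.2 and 9.15 against 0.329, 0.267 and 0.325 CPM, 4.91 ± 0.24), Hoxd12 (4.53, 4.05 and 5.1 against 0.0549, 0.214 and 0.271 CPM, 4.61 ± 0.33) and Hoxa9 (15.8, 20.9 and 21.4 against 0.823, 0.854 and 1.3 CPM, 4.28 ± 0.21). All 4 separated the groups without overlap. The size for Hoxd3 rests on 550 counts against 3, with 1 count in each feeder-removed library. Hoxc13 was the lower one, at 4.02, 4.16 and 3.76 against 4.44, 5.87 and 4.93 CPM (-0.35 ± 0.14, adjusted p = 0.0194), and its call was lost without control feeder library 3 or feeder-removed library 2. Hoxa4 (0.83 ± 0.42, adjusted p = 0.0999) was not called. In p53-defective feeders 19 members were higher and 13 lower than in feeder-removed ES cells (36.5% and 47.6% of all genes). Scaling on ES-specific genes gave 33 and 0, with the median of all genes at 5.887 and that of the members at 6.64. Scaling on feeder-specific genes gave 2 and 31, with these medians at -4.239 and -3.46. With standard scaling the highest were Hoxa2 (5.72 ± 0.29, and 6.42 without feeder-removed library 3), Hoxa3 (5.21 ± 0.20), Hoxa5 (4.17 ± 0.18) and Hoxa4 (4.08 ± 0.27). The size for Hoxa2 rests on 5 counts in feeder-removed cells. Hoxc6 was lower in p53-defective feeders than in ES cells from which control feeders had been removed, at 0.254, 0.346 and 0.674 against 5.87, 6.67 and 7.91 CPM (-3.98 ± 0.25), and so were Hoxc8 (-3.17 ± 0.31) and Hoxd10, which had 1 count over the 3 p53-defective libraries against 0.604, 1.01 and 0.758 CPM.

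Each co-culture was also compared with its own feeders, comparisons added after the data were seen. In ES cells on control feeders 34 of 38 members were lower than in control feeders and 2 higher, where 39.9% and 44.3% of all genes were called. Scaling on feeder-specific genes gave 2 and 29, with the median of all genes at 3.102 and that of the members at 1.01. In ES cells on p53-defective feeders 16 members were higher than in those feeders and 8 lower, where 46.7% and 33% of all genes were called. Scaling on ES-specific genes gave 2 and 28, with these medians at -2.149 and -2.07. Of the 16 members called higher with standard scaling, 12 also had a higher mean TPM in the co-culture and 4 a lower one. Among the latter, Hoxa2 went from 5.85 ± 0.16 to 4.62 ± 0.57 TPM and Hoxa10 from 10.3 ± 0.5 to 7.61 ± 0.67 TPM. Of the 2 higher in ES cells on control feeders, Hoxc13 was at 4.02, 4.16 and 3.76 CPM in feeders against 6.97, 7.34 and 6.57 CPM (0.80 ± 0.13), and lower with scaling on ES-specific genes (-4.62).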

How the data were processed

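The authors deposited 1 table with expected counts (estimates, not normalised) and TPM for 75416 RefSeq transcripts (32625 curated and 42791 predicted models). Per the submitters' processing notes the tools were StringTie 1.3.3b, HISAT2 2.1.0, DESeq2 1.2.10 and SAMtools 1.4 on mm10/GRCm38, with no roles given; per the labels' protocols Trizol served for RNA extraction and an Illumina TruSeq mRNA kit for the libraries. Whether strand was kept is not given in the sources used here. Of the table's columns, 60 were not used, such as group averages and other normalised values.

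Transcript counts were added up by gene, giving 19630 genes, of which 148 had no symbol, and rounded. Hox sums were whole within 0.05 for 100% of values. Predicted models held 7.18 to 19.52% of Hox counts by group. TPM was summed likewise. The low-count filter of edgeR 4.0.16 (R 4.3.3) left 15389 genes and took out 4241. Its two-sided, robust quasi-likelihood test with TMM scaling was fitted once to the 18 libraries, by group. A gene was called where its p, adjusted by Benjamini-Hochberg across the 15389 genes, was below 0.05. CPM are TMM-scaled. Replicates correlated at 0.9892 to 0.9953 (log2 CPM), with a common biological coefficient of variation of 0.0792. No label says that replicates came from separate cultures; p-values therefore measure the spread among these libraries only, which may be technical. Intervals (95%, exact binomial) and floors (3 counts over a group) cover counting error only. The fit was tested on simulated data. Alternatives were DESeq2 1.42.0 size factors and its Wald test, other filters, curated models only, a replicate block, leaving out each library, fits of only the groups compared, and scaling on 432 ES-specific or 76 feeder-specific genes. These are genes other than Hox at 10 CPM or more and at least 8-fold higher in both ES cell groups without feeders than in both feeder groups, or the reverse.

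The Hox members, gene lists and tests were chosen with earlier results of these data known. Values by library are given for the 12 members with the highest mean CPM in any group and for the 4 largest rises and falls among called members of each comparison; other members with such values were singled out after their values were seen. The values of 1 member are not reported here; it is included in the counts, sums and medians. From each other list, up to 3 genes with the smallest p were named. Same-numbered replicates correlated by -0.07 to 0.223 in their deviations from the group means.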

Additional observations from a re-analysis of the deposited data

Results flagged for a closer look

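With standard scaling the effect of the p53 label on Hox RNA differed between co-culture and feeders, by an edgeR test of the difference itself. The members' median was then 2.19, against 0.04 over all genes. With scaling on feeder-specific genes these medians were -0.19 and -2.365. With standard scaling 33 of 38 members were more positive in co-culture and 2 more negative, where 38.8% and 34.8% of all genes were called. Of the 2, Hoxc13 stood at -1.47 on the log2 scale (1.61 in feeders and 0.14 in co-culture). The fitted differences of Hoxd11 (7.89) and Hoxd13 (10.31) rest on 0 counts in p53-defective feeders, so their sizes depend on the fit and are no bounds. Hoxd13 had 55 counts over the 3 libraries of ES cells on p53-defective feeders, at 0.97, 1.5 and 0.891 CPM, and Hoxd11 had 16.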

How the results depend on the processing

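Scaling on 432 ES-specific or 76 feeder-specific genes, which these libraries themselves define, moved the counts by moving the median of all genes. Other causes were not tested. The shares of all genes called with these 2 scalings are not given, so the counts below cannot be set against them. In co-culture 36 members were higher and 0 lower with ES-specific scaling and 4 and 32 with feeder-specific scaling. The difference between co-culture and feeders gave 0 more negative members with the first, and 11 more positive and 12 more negative with the second. Against feeder-removed ES cells, control feeders had 0 lower with the first and 3 higher and 25 lower with the second, and p53-defective feeders 33 and 0, then 2 and 31. ES cells on control feeders against control feeders gave 0 higher with the first and 29 higher and 2 lower with the second. ES cells on p53-defective feeders against those feeders gave 2 higher and 28 lower with the first and 4 lower with the second. Feeder-specific scaling gave 8 lower after feeder removal, 5 higher and 11 lower with ATN161 against ES cells on control feeders, and 5 lower with ATN161 against removal; ES-specific scaling gave 0 higher with ATN161, as did curated transcripts only. With ES-specific scaling the sign turned for Hoxc13 in ES cells on control feeders against control feeders (-4.62), in the difference between co-culture and feeders (1.52) and in control feeders against feeder-removed cells (5.33) and for Hoxc6 in co-culture (0.52). Fitting only the groups compared, which tests fewer Hox genes, gave 9 higher in ES cells on p53-defective feeders against those feeders and 7 lower in p53-defective feeders against feeder-removed cells. Leaving out each library gave 0 to 1 higher with ATN161 against ES cells on control feeders (0 without library 1 of ES cells on control feeders) and 0 to 1 lower in control feeders against feeder-removed cells (0 without control feeder library 3 or feeder-removed library 2). The feeder counts moved least, at 8 to 11 higher and 24 or 25 lower in every setting. With a replicate block the counts were 10 higher and 25 lower in feeders and 15 and 18 in co-culture; same-numbered libraries did not correlate by over 0.1 in all 3 pairs of any comparison, so the numbers were taken as names only. Of the counts of members called, 281 values under alternatives stayed within 1.5 times and 31 did not. Library totals of 15.12 to 19.83 M counts limit low members by counting error, such as Hoxd3, with 8 counts over the libraries of ES cells on control feeders and 0 with ATN161.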

Other observations

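Hoxd3 and Hoxd4, whose gene models overlap, were low in co-culture beside the other members. Relative to control feeders, the 35 members with at least 1 CPM there stood at a median of 24.4% in ES cells on control feeders, with quartiles of 19.1 and 37.7%. Hoxd3 stood at 1.22% (9.22, 12.1 and 10.3 CPM in feeders, 0.0982, 0.143 and 0.146 CPM in co-culture) and Hoxd4 at 3.43% (8.83, 10.2 and 9.15 against 0.344, 0.429 and 0.195 CPM). At the other end Hoxc13 stood at 175%. In ES cells on p53-defective feeders, relative to those feeders, the median was 115% over the 32 of these members with counts in the feeders, and Hoxd3 was again the lowest at 25.1%, with Hoxd4 at 37.7%. By TPM that median was 69.5%, with Hoxd3 at 14.5% and Hoxd4 at 22.4%, while for ES cells on control feeders the median was 24.6%. The 2 pairs of groups share no library. The order of these percentages within a pair does not depend on scaling. These members were singled out after their values were seen, and no test was made of them against the others.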
